A study of Mus musculus with 6 samples.

Results

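The genes described here encode 9 components of the tight junction of the blood-brain barrier (BBB), and they were chosen by name among the 23183 gene symbols measured in mouse cerebral microvessels. They are the claudins *Cldn5* and *Cldn12*, occludin (*Ocln*), the scaffold ZO-1 (*Tjp1*), the tricellular junction receptor *Lsr*, and the junctional adhesion molecules *F11r* (JAM-A), *Jam2*, *Jam3* and *Esam*. All 9 were found in the files, and all 9 passed the filter of a mean of at least 1 FPKM, a fragment count scaled to transcript length and to the total of the library, over the 6 libraries. Microvessels were isolated from the brains of C57BL/6 mice, and 1 library was made for each of 3 WT and 3 TEKCRIF1 KO mice. WT mice were TEK-cre, *Crif1*+/+, and KO mice were TEK-cre, *Crif1* flox/flox, so that both groups carried the Cre recombinase and differed in the floxed gene. The age of these mice is not given in the sources used here. Tek directs Cre to endothelial cells (ECs), and Tek-driven Cre is also known to be active in part of the blood lineage. *Crif1* (*Gadd45gip1*) encodes a factor that mitochondria need to make their own proteins, and the comparison asks whether the transcripts of the junction differed when ECs lacked it. The label check on *Gadd45gip1* gave 18.8, 15.3 and 16.5 FPKM in the WT group and 10.8, 7.54 and 10.4 FPKM in the KO group, without overlap.

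Tight junctions seal the cleft between neighbouring brain ECs. Claudins and occludin are membrane proteins whose extracellular loops meet those of the next cell, and claudin-5 is the main sealing claudin of the BBB. Junctional adhesion molecules are immunoglobulin-like proteins that bind across the cleft, ZO-1 ties the membrane proteins to actin inside the cell, and the Lsr protein, angulin-1, marks the points where 3 cells meet. The same protein families also seal epithelia, among them the choroid plexus, which forms the barrier between blood and cerebrospinal fluid.

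2 promoters are shown because *Cldn5* had the highest level of the 9 genes and *F11r* was the gene whose KO and WT values did not overlap. Each is the 250 bases before the gene's start in RefSeq (GRCm38.p6), printed 5′ to 3′ on the plus strand, which is the strand of both genes. The *Cldn5* window is chr16:18776597-18776846 and the *F11r* window is chr1:171437311-171437560. Capitals mark the letters CCAAT, or ATTGG on the other strand, which are the core of the CCAAT box.
Cldn5: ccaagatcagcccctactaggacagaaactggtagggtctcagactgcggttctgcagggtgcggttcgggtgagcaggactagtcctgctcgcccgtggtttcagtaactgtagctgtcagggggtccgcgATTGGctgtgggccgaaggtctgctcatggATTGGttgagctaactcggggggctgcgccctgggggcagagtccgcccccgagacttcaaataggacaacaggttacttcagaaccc
F11r: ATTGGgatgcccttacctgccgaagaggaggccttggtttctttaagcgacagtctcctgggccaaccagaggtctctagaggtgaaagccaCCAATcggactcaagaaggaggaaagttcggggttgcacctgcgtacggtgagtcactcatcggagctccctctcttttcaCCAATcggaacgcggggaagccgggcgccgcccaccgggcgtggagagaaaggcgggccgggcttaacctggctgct
The *Cldn5* window held 2 of these matches and the *F11r* window held 3. RefSeq windows matched 6 of the 9 genes by symbol, and those of *Cldn12*, *Ocln*, *Tjp1* and *Lsr* held no CCAAT match. RefSeq starts can differ from the GENCODE gene coordinates given below. The *F11r* window ends past that gene's GENCODE start, and the *Tjp1* window (chr7:65371245-65371494) lies inside its GENCODE coordinates. Of 27025 promoter windows of the same length, 34.5% held at least 1 match. The ETS core CCGGAA, searched on both strands, was in the windows of *Cldn12*, *Ocln* and *Lsr*, and in 12.2% of all windows. The E-box CACCTG, also searched on both strands, was in those of *Lsr* and *F11r* and in 17.1% of all windows, and the TATA box TATAAA was in 0 of the 6 and in 13% of all windows. These are matches of letters only, and no binding was measured.

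In these microvessels *Cldn5* stood far above the other junction genes, and 8 of the 9 genes had overlapping values in WT and KO mice. *F11r* was the exception: its level was 28.9 ± 1.19 FPKM in the WT group and 43.2 ± 11.3 FPKM in the KO group (SD, n = 3 each), a 1.44-fold difference with a 95% interval of 1.01 to 2.06. The groups were barely apart, since the lowest KO value of *F11r* was 30.1 FPKM, in KO 2, and the highest WT value was 29.7 FPKM, in WT 3. By limma, 1 of the 9 genes had an unadjusted p under 0.05, against 5.88% of the 14247 genes tested, and none of the 9 passed Benjamini-Hochberg adjustment over all genes tested. Values of KO and WT mice did not overlap for 1 of the 9, against 11.1% of all genes tested. The median log2 fold change of the 9 genes was −0.08, beside −0.01 for all genes tested. Log2 fold changes are KO minus WT on the log2(FPKM + 1) scale.

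**Figure D1:**
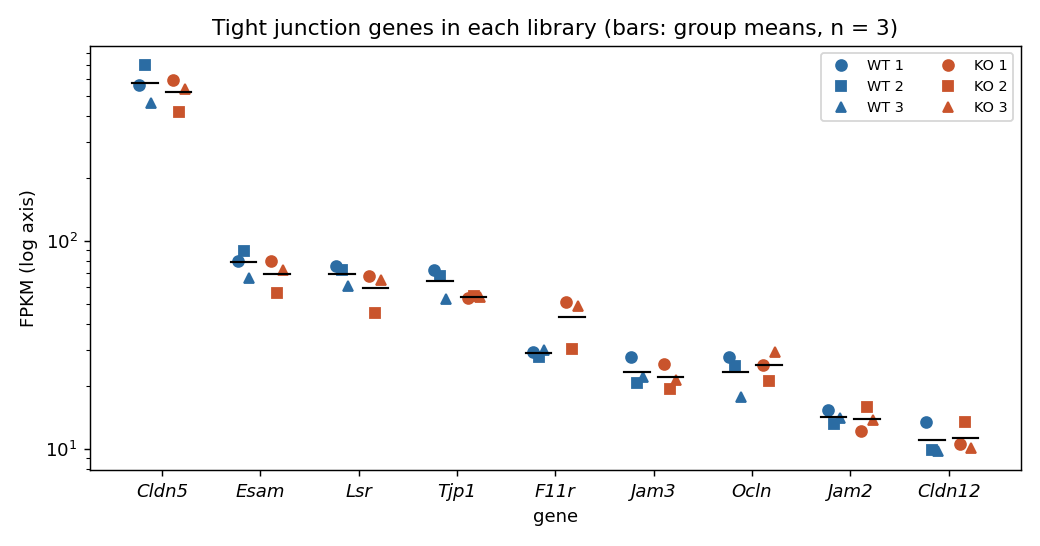
FPKM of each tight junction gene (log axis) in each of the 3 WT (blue) and 3 KO (orange) libraries, with group means as bars. *Cldn5* lies between 420 and 702 FPKM in every library, and the WT and KO points of *F11r*, unlike those of the other genes, do not overlap.

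The levels of the 9 genes, which FPKM puts on a scale per length, spanned from 9.75 FPKM, for *Cldn12* in WT 3, to 702 FPKM, for *Cldn5* in WT 2. In WT mice the order was *Cldn5*, *Esam*, *Lsr*, *Tjp1*, *F11r*, *Jam3*, *Ocln*, *Jam2* and *Cldn12*. *Cldn5* ranked 108 among the 14247 genes tested by mean FPKM, within the top 0.758%. The order was set by the WT libraries, so it is given as a description, with no test: 6 of the 8 neighbouring pairs had the same order in all 6 libraries, the 3 KO libraries included. *Cldn5* exceeded *Esam* 7.28-fold, by 2.86 ± 0.06 on the log2 scale (SD, 6 libraries). *Tjp1* exceeded *F11r* by 0.73 ± 0.53 on that scale, over WT and KO libraries together. *Lsr* exceeded *Tjp1* in 5 of 6 libraries and *Jam3* exceeded *Ocln* in 3 of 6, so neither pair could be put in order beyond the spread between libraries.

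Claudins. *Cldn5* is a gene of 1 exon on chromosome 16 (chr16:18776847-18778262, plus strand, GRCm38). It had 563, 702 and 462 FPKM in the WT libraries 1 to 3, and the KO libraries 1 to 3 had 598, 420 and 540 FPKM. The groups overlapped across most of their range, with WT 2 highest and KO 2 lowest. Means were 576 ± 121 FPKM in the WT group and 520 ± 90.9 FPKM in the KO group (SD, n = 3 each). The log2 fold change was −0.14 (SE 0.27, 95% interval −0.75 to 0.46, limma adjusted p = 0.96), and the exact permutation test gave p = 0.5. When a trend on GC content was removed the log2 fold change was 0.04, and without KO 2 it was 0.00, so no direction could be given. The GC content of the transcript is 60.5%, the highest of the 9 genes.

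*Cldn12* (chr5:5489537-5514958, minus strand) encodes a claudin also found in brain endothelium, and it was the lowest of the 9 genes. Its values were 13.4, 9.84 and 9.75 FPKM in the WT group and 10.5, 13.4 and 10.1 FPKM in the KO group. In each group 1 library stood above the other pair, WT 1 and KO 2, and the means were 11 ± 2.1 and 11.3 ± 1.82 FPKM (SD, n = 3 each). The log2 fold change was 0.04 (SE 0.22, 95% interval −0.46 to 0.54, limma adjusted p = 0.987), and it was −0.06 with the GC trend removed.

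Occludin, ZO-1 and Lsr. *Ocln* (chr13:100496507-100552718, minus strand) had 27.7, 24.9 and 17.8 FPKM in the WT group and 25.2, 21.2 and 29.3 FPKM in the KO group. WT 3 was the lowest library and KO 3 the highest, and the groups overlapped. On the log2 scale the difference was 0.11 (SE 0.23, 95% interval −0.39 to 0.62, limma adjusted p = 0.962), and it was −0.03 with the GC trend removed.

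*Tjp1* (chr7:65296165-65527781, minus strand), the longest of the 9 genes with 28 exons in its longest transcript, had 72.5, 68.2 and 52.3 FPKM in the WT group and 53.2, 54.3 and 53.8 FPKM in the KO group. The KO libraries lay close together, and WT 3 lay just below all of them while WT 1 and WT 2 lay above. Means were 64.3 ± 10.6 and 53.8 ± 0.546 FPKM (SD, n = 3 each). KO mice differed by −0.24 on the log2 scale (SE 0.20, 95% interval −0.68 to 0.20, limma adjusted p = 0.887), with an exact permutation p of 0.4. It was −0.15 without WT 1 and −0.38 without WT 3.

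*Lsr* (chr7:30957770-30973464, minus strand), whose product recruits proteins to tricellular contacts, had 75.6, 72.7 and 60.8 FPKM in the WT group and 67.8, 45.1 and 64.7 FPKM in the KO group. KO 2 was the lowest library, and KO 1 and KO 3 lay above WT 3. This was a log2 fold change of −0.25 (SE 0.22, 95% interval −0.73 to 0.24, limma adjusted p = 0.899), with an exact permutation p of 0.3. It was −0.07 without KO 2 and −0.09 with the GC trend removed.

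Junctional adhesion molecules. *F11r* (chr1:171437535-171464603, plus strand) encodes JAM-A, which is present at both endothelial and epithelial junctions. It had 29.3, 27.5 and 29.7 FPKM in the WT group and 50.6, 30.1 and 48.8 FPKM in the KO group. The WT libraries lay within a narrow band, KO 1 and KO 3 were well above it, and KO 2 was just above its upper edge. The log2 fold change was 0.53 (SE 0.23, 95% interval 0.02 to 1.04, limma unadjusted p = 0.0446, adjusted p = 0.841). The exact permutation p was 0.1, the smallest that 3 mice against 3 allow, and *F11r* ranked 744 by limma p among the genes tested. Leaving out KO 1 gave a log2 fold change of 0.40 (limma unadjusted p = 0.154), leaving out KO 3 gave 0.43 (unadjusted p = 0.128), and leaving out KO 2 gave 0.76 (unadjusted p = 0.00126, adjusted p = 0.152). Leaving out a WT library gave 0.50 to 0.55 (limma unadjusted p = 0.0802 to 0.116), and the unadjusted limma p was also above 0.05 with no filter (0.0626), median scaling (0.0526) or no trended variance (0.0689).

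*Esam* (chr9:37528078-37538319, plus strand), an adhesion molecule largely restricted to endothelium and platelets, had 80.4, 89.9 and 66 FPKM in the WT group and 79.8, 55.9 and 72.7 FPKM in the KO group. WT 2 was highest and KO 2 lowest, as for *Cldn5*, and the groups overlapped. For *Esam* the log2 fold change was −0.18 (SE 0.22, 95% interval −0.67 to 0.30, limma adjusted p = 0.932). It was −0.04 without KO 2, −0.08 without WT 2 and −0.11 with the GC trend removed, and −0.30 and −0.29 without WT 3 and KO 1.

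*Jam2* (chr16:84774123-84825928, plus strand) and *Jam3* (chr9:27097384-27155421, minus strand) encode JAM-B and JAM-C, which bind one another across the cleft. *Jam2* had 15.4, 13.2 and 14.1 FPKM in the WT group and 12.2, 15.9 and 13.8 FPKM in the KO group, with the highest and the lowest value both among KO libraries. *Jam3* had 27.7, 20.6 and 22.2 FPKM in the WT group and 25.5, 19.4 and 21.5 FPKM in the KO group, and replicate 1 was the highest library of each group. The log2 fold changes were −0.03 (SE 0.20, limma adjusted p = 0.991) for *Jam2* and −0.08 (SE 0.21, adjusted p = 0.97) for *Jam3*.

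For the 8 genes other than *F11r*, the largest log2 fold change was 0.25 in size, and their 95% intervals together ran from −0.75 to 0.62, or 0.60-fold to 1.54-fold. The p-values do not show that the levels were equal.

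**Figure D2:**
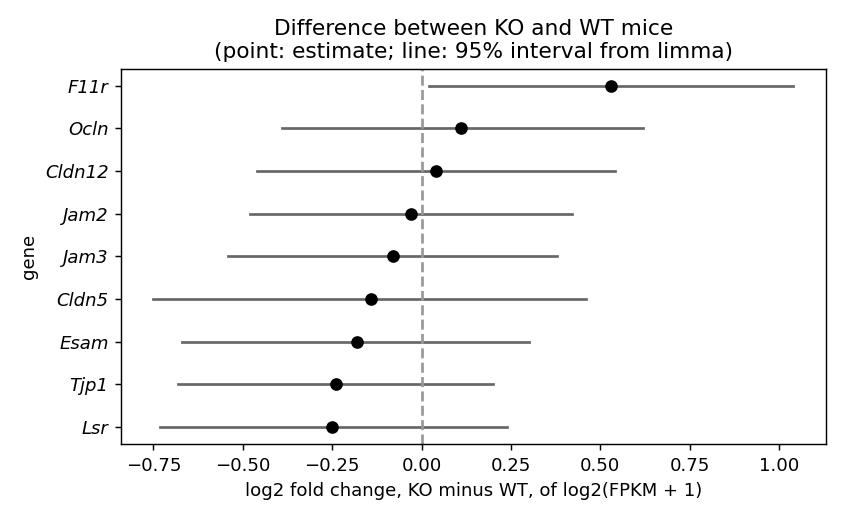
Log2 fold change of KO against WT mice for each of the 9 genes (points), with the 95% interval from limma (lines). The interval of *F11r* runs from 0.02 to 1.04 and lies above 0, and those of the other 8 genes include 0.

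The 4 junctional adhesion molecules were also set against each other as shares of their summed FPKM, a quantity chosen after the values were seen. *F11r* took 19.2, 18.2 and 22.5% of the sum in WT mice and 30.1, 24.8 and 31.1% in KO mice, without overlap. These shares hold the same *F11r* values as above, so they are not a separate result. In KO 2 *F11r* had 30.1 FPKM, beside 29.7 FPKM in WT 3, and the sum was the lowest of the 6 libraries, at 121 FPKM. *Esam* took 52.6, 59.5 and 50% in WT mice and 47.4, 46.1 and 46.4% in KO mice, also without overlap. The exact permutation test gave p = 0.1 for each share, the smallest possible, and since shares of a sum are tied to each other the pair does not count as separate results. *Jam3* took 16.2 ± 2.33% in WT mice and 15 ± 1.15% in KO mice, and *Jam2* took 9.82 ± 1.01% and 9.71 ± 3.01% (SD, n = 3 each). Both overlapped between the groups.

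Ratios of genes within a library were compared for all 36 pairs of the 9 genes. KO and WT ratios did not overlap for 7 pairs (19.4%), beside 12.3% of the ratios of a member and any other gene tested. Of the 8 pairs with *F11r*, 4 did not overlap, namely those with *Cldn5*, *Lsr*, *Jam3* and *Esam*. The log2 ratio of *Cldn5* to *F11r* was 4.22, 4.63 and 3.91 in WT mice and 3.54, 3.76 and 3.44 in KO mice, lower by a mean of 0.67 in KO mice. The 3 other pairs were *Cldn12* to *Tjp1*, *Ocln* to *Tjp1* and *Ocln* to *Lsr*, with mean differences of 0.28, 0.35 and 0.36 on the log2 scale. After adjustment over the 36 pairs the smallest exact permutation p was 0.514, so no ratio passed. The count of 7 was 11 without WT 2 and 14 without KO 2, but smaller groups overlap less often by construction. The 12.3% is for all 6 libraries and cannot be set beside those counts.

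The endothelial content of the libraries was read from 15 EC markers, all above the filter, whose summed level was 947 to 1476 FPKM in the WT group and 943 to 1168 FPKM in the KO group. Their mean level was 6.01 ± 0.23 on the log2 scale in WT mice and 5.88 ± 0.11 in the KO group (SD, n = 3 each; exact permutation p = 0.4). Of the 15 markers, 5 had a positive and 10 a negative log2 fold change, with a median of −0.12. *Cdh5*, another EC gene, was placed in the list of junction genes described below and was not among the 15. In bulk RNA, fewer cells of a type and less RNA per cell cannot be told apart. Relative to this mean, *Cldn5* was 2.90, 3.44 and 3.08 in WT mice and 3.27, 2.97 and 3.16 in KO mice on the log2 scale, a difference of −0.01. The values of 2 of the 9 genes did not overlap on this scale, against 10.4% of all genes tested. They were *F11r*, higher by 0.66 in KO mice, and *Ocln*, higher by 0.25 (exact permutation p = 0.1 for each). Relative *Ocln* was −1.54 to −1.32 in WT mice and −1.27 or higher in KO mice, and with the GC trend removed 1 gene did not overlap in place of 2.

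*Cldn5*, *Esam* and *Lsr* had similar profiles over the libraries, although no correlation between members passed adjustment. All 3 were lowest in KO 2 and next lowest in WT 3, and so was the mean of the 15 EC markers, at 5.75 and 5.77 on the log2 scale. They also have the highest transcript GC content of the 9 genes (60.5% for *Cldn5*, 58.5% for *Lsr* and 53.7% for *Esam*), and KO 2 had the most negative correlation of level with GC content across genes, −0.247. The part of EC content and GC content in the shared profile was not tested. Over the 6 libraries, Pearson's r of log2 levels was 0.97 for *Cldn5* and *Esam* (exact permutation p = 0.00278) and Spearman's rho was 0.94 (exact permutation p = 0.0167). Without the 2 libraries farthest from the median of *Cldn5*, r was 0.95. For *Lsr* and *Esam*, r was 0.94 and rho 0.94 (exact permutation p = 0.00556 and p = 0.0167), and r was 1.00 without the 2 farthest libraries of *Lsr*. For *Cldn5* and *Lsr*, r was 0.84 and rho 0.83 (exact permutation p = 0.0347 and p = 0.0583), and r was 0.71 without the 2 farthest libraries of *Cldn5*. After adjustment over the 36 pairs the p-values for r were 0.1 for both pairs with *Esam* and 0.417 for *Cldn5* and *Lsr*, and 0 pairs passed. The libraries share their scaling, and 3 libraries per genotype are too few for a value within each. The ratio of *Cldn5* to *Esam* differed by 0.04 on the log2 scale between KO and WT mice.

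**Figure D3:**
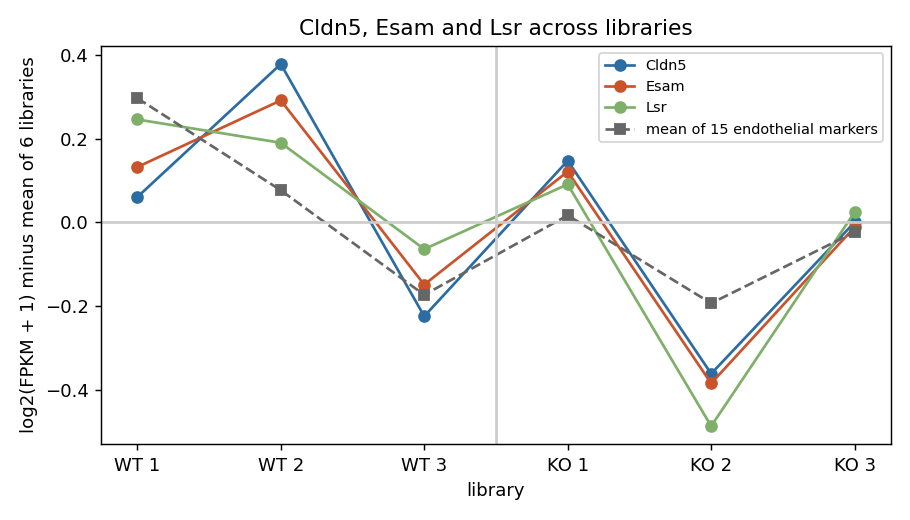
Log2(FPKM + 1) of *Cldn5*, *Esam* and *Lsr*, each minus its mean over the 6 libraries, with the mean of 15 endothelial markers (dashed). The 3 genes share their lowest library, KO 2, and the vertical line divides WT from KO mice.

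Among the other 14246 genes tested, 106 had an r over 0.9 with *Cldn5*, and *Esam* ranked 9 among them. *Lsr* ranked 303 by r with *Cldn5*, and the remaining members ranked from 1900 (*Ocln*) to 13112 (*Jam2*), so many genes outside the junction had profiles closer to *Cldn5* than *Lsr* had. The highest were *Evc2* (r = 0.984), *AI837181* (0.984), *Egln2* (0.980), *Adamts14* (0.978) and *Mettl24* (0.977), picked as the highest of all genes over 6 libraries and therefore given without a test. Of these, *Adamts14* and *Mettl24* had mean levels of 1.37 and 1.04 FPKM, close to the filter.

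*Cldn5* made up 62 to 77% of the summed FPKM of the 25 *Cldn* genes in the files, with 71.5 ± 4.89% in WT mice and 65.3 ± 3.49% in the KO group (SD, n = 3 each; exact permutation p = 0.2). Of these genes, 9 had a mean of at least 1 FPKM and 6 were listed at 0 in every library. *Cldn11*, a claudin found in myelin and not only there, came next with 103 to 169 FPKM. *Cldn2*, which forms a cation pore in epithelia such as the choroid plexus, had 25.8, 25.8 and 32.2 FPKM in the WT group and 56.2, 24.9 and 112 FPKM in the KO group (log2 fold change 0.94, limma unadjusted p = 0.0545). Without KO 2 the log2 fold change of *Cldn2* was 1.48 (limma unadjusted p = 0.000707), without KO 3 it was 0.42 (unadjusted p = 0.231), and without WT 1, WT 2, WT 3 or KO 1 the unadjusted p was 0.0733 to 0.121. *Cldn1*, a sealing claudin of epithelia, had 14.3, 9.7 and 15.7 FPKM in the WT group and 36, 15.8 and 57.7 FPKM in the KO group, a log2 fold change of 1.25 (SE 0.40, limma unadjusted p = 0.0105, or 0.0618 with no filter, adjusted p = 0.841). As with *F11r*, KO 1 and KO 3 were high for both claudins, and KO 2 lay at or near the WT level.

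**Figure D4:**
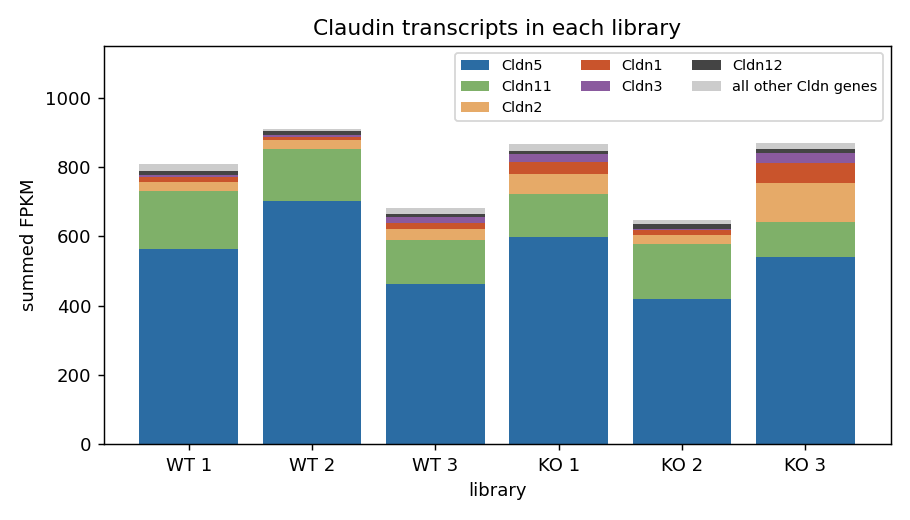
Summed FPKM of the claudin genes in each library, stacked by gene. *Cldn5* makes up 62 to 77% of each bar, and the segments of *Cldn2* and *Cldn1* are widest in KO 1 and KO 3.

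The same pair of KO libraries was high in markers of choroid plexus epithelium. The 5 markers of that cell type (*Ttr*, *Kl*, *Folr1*, *Clic6* and *Kcnj13*) summed to 3400, 2999 and 2946 FPKM in the WT group and to 8913, 3010 and 10755 FPKM in the KO group. All 5 had a positive log2 fold change, with a median of 0.94, and 1 had an unadjusted limma p under 0.05, against 5.88% of all genes tested. KO 2, whose sum lay within the WT range, had 30.1 FPKM of *F11r*, beside 29.7 FPKM in the highest WT library. The part of choroid plexus RNA in the *F11r*, *Cldn1* and *Cldn2* values was not tested. *Cldn5* did not follow the marker sum: its highest level was in WT 2 and its KO 1 and KO 3 values lay within the WT range.

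Most markers of the remaining cell types had negative log2 fold changes, except those of smooth muscle, where 4 of 5 were positive. An unadjusted limma p under 0.05 with a lower KO level was found for 3 of 6 oligodendrocyte, 2 of 8 pericyte, 2 of 7 astrocyte, 1 of 6 neuron, 1 of 4 fibroblast and 1 of 3 erythroid markers, and for 0 of 6 microglia and 0 of 5 smooth muscle markers, against 3.11% of all genes tested. The erythroid marker was *Hbb-bs*, at 0, 126 and 10.6 FPKM in the WT group and 0 in every KO library (exact permutation p = 0.4). That call rested mainly on WT 2, and WT 1, at 0 for *Hbb-bs*, had 2215 FPKM of *Hba-a1*. Summed astrocyte markers were 601 to 709 FPKM in the WT libraries and 471 to 499 FPKM in the KO libraries. Summed fibroblast markers were 769 to 1092 against 463 to 693 FPKM, and summed microglia markers 144 to 161 against 123 to 142 FPKM. Each sum was without overlap (exact permutation p = 0.1 for each, the smallest that 3 mice against 3 allow). Of the single markers, 2 of 7 astrocyte, 1 of 4 fibroblast and 1 of 6 microglia genes had all KO values below WT. Values did not overlap, in either direction, for 11.1% of all genes tested. The part of these cell types in the junction gene values was not tested.

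**Figure D5:**
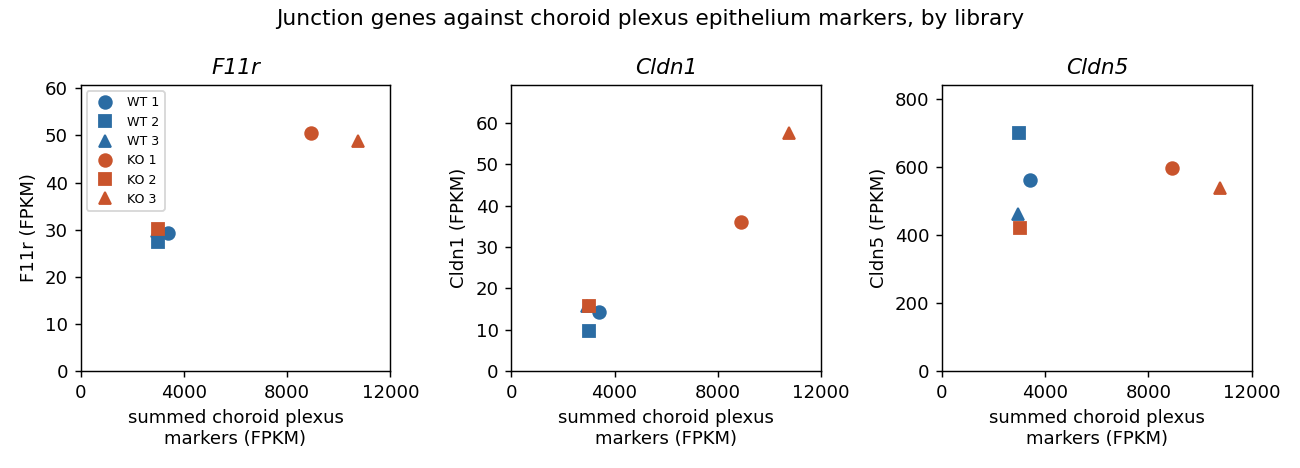
FPKM of *F11r*, *Cldn1* and *Cldn5* against the summed FPKM of 5 choroid plexus epithelium markers, 1 point per library (WT blue, KO orange). KO 1 and KO 3 stand apart at marker sums of 8913 and 10755 FPKM and hold the highest *F11r* and *Cldn1*, while *Cldn5* is highest in WT 2.

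Other genes of the tight junction came from a list of 80 symbols, of which 79 were in the files and 62 were tested. Log2 fold changes were positive for 31 and negative for 31, with a median of −0.01, and 4 (6.45%) had an unadjusted limma p under 0.05, 3 higher and 1 lower in KO mice, a share near the 5.88% of all genes tested. None passed adjustment over all genes tested, and the count of 4 was 2 without KO 1 and 11 without KO 2, while that of all genes tested went from 838 to 510 and 1871. Those higher were *Cldn1* (above), *Tjp3* and *Rap1a*. *Tjp3*, which encodes the scaffold ZO-3 of epithelia, had 3.93, 1.41 and 3.68 FPKM in the WT group and 7.16, 3.6 and 8.56 FPKM in the KO group, with KO 2 inside the WT range (log2 fold change 0.90, SE 0.38, limma unadjusted p = 0.0382, and 0.111 without KO 1, 0.138 without KO 3, 0.159 without WT 2, 0.1 with no filter and 0.0584 with quantile normalization). *Rap1a*, a small GTPase that acts on junction assembly, had 23, 25.2 and 24.8 FPKM in the WT group and 37.4, 35 and 29.2 FPKM in the KO group, without overlap (0.45, SE 0.19, limma unadjusted p = 0.0377), and 0.27 with the GC trend removed (unadjusted p = 0.177). Without KO 1 or any single WT library its limma p was above 0.05 as well. The same held with a replicate block (limma unadjusted p = 0.0645) and with no trended variance (limma unadjusted p = 0.0599).

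The gene that was lower was *Cdh5*, which encodes VE-cadherin, the adhesion molecule of endothelial adherens junctions, known to act upstream of *Cldn5* expression in ECs. It had 86.7, 92.4 and 91.3 FPKM in the WT group and 50.8, 42.5 and 38.1 FPKM in the KO group, and the groups were far apart. The log2 fold change was −1.03 (SE 0.19, limma unadjusted p = 0.000303, adjusted p = 0.841), and the exact permutation p was 0.1. The remaining list genes with the largest differences did not reach an unadjusted p under 0.05. For *Cldn7*, an epithelial claudin, the fold change was −0.60 on the log2 scale (limma unadjusted p = 0.307), and for *Snai1*, a transcription repressor of junction genes, it was −0.53 (unadjusted p = 0.176). Single libraries moved both: *Cldn7* was −1.16 without WT 2 (limma unadjusted p = 0.0417) and −0.09 without WT 3, and *Snai1* was −0.25 without WT 3 or KO 1 and −0.82 without KO 3. *Cldn7* was low, at 1.31, 0 and 3.37 FPKM in the WT group and 0.149, 0.361 and 0.847 FPKM in the KO group. Its WT 2, KO 1 and KO 2 values lay under what 3 fragments are worth at 1 kb in those libraries, 0.34 to 0.47 FPKM.

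By list, 6 of 11 scaffold genes, 7 of 17 actin and signalling partners and 6 of 13 polarity genes that were tested had a positive log2 fold change, with medians of 0.09, −0.05 and −0.02. The 7 other claudins tested had the largest median, 0.60, with 4 positive and 3 negative. The 4 were *Cldn1*, *Cldn2*, *Cldn3* and *Cldn9*, and each was highest in KO 1 and KO 3, the libraries with the high choroid plexus marker sums, whose part was not tested. *Cldn3* had 4.57, 4.9 and 16.9 FPKM in the WT group and 22.1, 3.22 and 28.6 FPKM in the KO group, and *Cldn9* had 3.51, 2.76 and 4.66 FPKM against 8.34, 2.64 and 8.89 FPKM. Of the other immunoglobulin-like genes tested 1 of 3 was positive (median −0.39), of the other tricellular and MARVEL genes 2 of 3 (0.10) and of the regulators of *Cldn5* 5 of 8 (0.02).

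The members were measured from an estimated 240 fragments or more each in every library, with 3800 to 9100 for *Cldn5*, 490 to 1400 for *F11r* and 240 to 610 for *Jam3*. Estimated library depth was 6400000 to 11800000 fragments and lowest in KO 2. Relative to the mean of the 6 libraries, levels followed transcript length with a Spearman correlation across genes of −0.294 in KO 1, 0.291 in KO 2 and −0.142 in KO 3, and of 0.0161 to 0.0497 in WT libraries. With GC content the correlation was 0.0836, 0.313 and 0.151 in the WT libraries and −0.137, −0.247 and −0.0273 in the KO libraries, so its sign separated the genotypes. Removing that trend changed the sign of *Cldn5*, *Cldn12* and *Ocln*, as leaving out single libraries also did, and with the trend removed *F11r* had a log2 fold change of 0.53 (limma unadjusted p = 0.0392). Removing a trend on length left *F11r* with an unadjusted limma p under 0.05.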

How the data were processed

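Cerebral microvessel RNA (3 WT mice, 3 TEKCRIF1 KO mice) was sequenced as paired ends from directional libraries, and mice were grouped by the genotype label. The authors trimmed the reads, mapped them with TopHat (mm10 per the submitters' processing notes) and deposited 1 FPKM value per gene symbol and library. The program that computed FPKM and any scaling between libraries are not given in the sources used here. Values were analyzed as log2(FPKM + 1), a scale that understates the change of low genes, with limma 3.58.1 in R 4.3.3 (trended variance) keeping the 14247 genes whose mean reached 1 FPKM, and Benjamini-Hochberg adjustment was over all of them. DESeq2, which the authors used, needs counts and was not run. Single values, ratios and shares were tested with two-sided exact permutation tests over mice. Other steps used Python 3.11.15, numpy 2.4.6 and pandas 2.3.3. The script was tested on simulated data.

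Depth was estimated from the spacing of values under 0.3 FPKM and single-transcript genes of GENCODE M21 (GRCm38), which also gave coordinates, length and GC content. At a length of 1 kb, 3 fragments are worth 0.25 to 0.47 FPKM, for counting error only. Same-numbered WT and KO libraries did not deviate together (correlations 0.037, 0.027 and 0.0016). The numbers 4, 6 and 8 (WT) and 1, 2 and 6 (KO) in the file headers differ from the replicate numbers of the titles used here.

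The 9 genes and all gene lists were chosen with earlier results of these data known. Named genes were the 9 members, listed junction genes with an unadjusted p under 0.05 or among the 3 largest log2 fold changes in each direction, *Gadd45gip1*, and the 5 genes with the highest r with *Cldn5*. The alternatives were other filters, pseudocounts, scalings and variance models, a replicate block, removal of trends on length and GC content (loess, span 0.3), and leaving out each library in turn. The marker lists of the remaining cell types, tested by the same fit, had 1 of 8 pericyte, 4 of 5 smooth muscle, 1 of 7 astrocyte, 1 of 6 oligodendrocyte, 1 of 6 neuron, 1 of 6 microglia, 0 of 4 fibroblast and 0 of 3 erythroid genes with a positive log2 fold change.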

Additional observations from a re-analysis of the deposited data

How the results depend on the processing

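Over the 9 genes and the alternatives that kept all libraries, 83 of 90 log2 fold changes kept their direction and their side of an unadjusted p of 0.05, while 3 lost their call and 4 changed sign. Of 54 values with 1 library left out, 39 kept both, 5 lost their call (all *F11r*) and 10 changed sign. For *F11r* the log2 fold change was 0.53 (limma unadjusted p = 0.0626) with no filter, 0.54 (limma unadjusted p = 0.0526) with median scaling and 0.53 (limma unadjusted p = 0.0689) with no trended variance, and the count of members with a limma p under 0.05 was then 0. Removing the GC trend gave 0.04 for *Cldn5*, −0.06 for *Cldn12* and −0.03 for *Ocln*, and 1 gene in place of 2 that did not overlap relative to the endothelial markers. Quantile normalization gave 0.00 for *Jam2*. The cause of these shifts was not tested.

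Leaving out 1 library gave −0.29 to 0.01 for *Cldn5*, −0.07 to 0.18 for *Cldn12*, −0.07 to 0.24 for *Ocln*, −0.12 to 0.05 for *Jam2*, −0.18 to 0.04 for *Jam3*, −0.38 to −0.15 for *Tjp1*, −0.35 to −0.07 for *Lsr*, −0.30 to −0.04 for *Esam* and 0.40 to 0.76 for *F11r*. Without single libraries the count of members with a limma p under 0.05 was 0 to 1, that of all genes 450 (without WT 2) to 1871 (without KO 2), 510 without KO 1, and that of the listed junction genes 2 (without KO 1) to 11 (without KO 2). Non-overlapping ratios then numbered 8 to 14, with 11 without WT 2 and 14 without KO 2; smaller groups overlap less often by construction.

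The replicate block gave *F11r* a limma p of 0.0418, and 871 genes in place of 838. It took *Rap1a* above 0.05 (limma unadjusted p = 0.0645) and *Cldn2* below it (limma unadjusted p = 0.0121), and changed no other call among the 9 members, *Gadd45gip1* and the 7 named genes of the junction list. *Cldn2* was also below 0.05 with quantile normalization (limma unadjusted p = 0.0495) and with the length trend removed (limma unadjusted p = 0.0478). The order of levels was not recomputed without a library, since the sign-flip test planned for it cannot go below 0.0625 with 5 libraries. *Tjp3* lost its call with no filter (limma unadjusted p = 0.1), with quantile normalization (limma unadjusted p = 0.0584) and without KO 1, KO 3 or WT 2, and *Cldn1* lost it with no filter (limma unadjusted p = 0.0618). With 3 mice per group, no exact test between genotypes could give a p below 0.1.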
